A study of Mus musculus with 10 samples.

Results

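The mitochondrial genome of the mouse is a small circle of DNA with its own genes, and this account describes their transcripts in whole kidneys of mice given quinolinic acid or vehicle. Members were all genes of GENCODE vM21 whose symbol begins with mt-, 37 in all, of which 13 code for proteins, 2 for ribosomal RNAs and 22 for transfer RNAs. Of these, 34 had a row in the authors' deposited table, against 27876 gene symbols and 85107 transcripts in the whole table. The members without a row were the serine, aspartate and lysine tRNA genes mt-Ts1, mt-Td and mt-Tk. Each member has 1 annotated transcript, so no choice between transcripts was needed.

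The series compared 5 wild-type mice that received vehicle with 5 wild-type mice that received quinolinic acid at 0.5 g/L in the drinking water. Kidneys were collected on day 14 from both groups, under 1 batch label. Quinolinic acid is a product of tryptophan breakdown, is converted towards NAD, and activates NMDA-type glutamate receptors. The sources used here do not give the strain, sex and age of the mice, or whether kidney injury had been induced in these 10 animals. All 8 kidney markers examined were measured, from 6.10 CPM (counts scaled to the library total) for the podocyte gene Nphs1 to 1430 CPM for the proximal tubule phosphate transporter gene Slc34a1 in the authors' deposited table.

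The values are a finished comparison by the authors. For each transcript the authors' deposited table gives 1 log2 fold change, 1 mean level over all libraries and the statistics of a likelihood-ratio test. Values of single kidneys were not analysed here. Library depth is therefore unknown and the spread between mice cannot be shown. Errors are approximate 95% intervals, which a fold change and its likelihood ratio allow to be derived. Since the numerator group is not named in the header, signs are given as deposited and carry no direction relative to quinolinic acid. In whole tissue, fewer cells of a type and less RNA per cell cannot be told apart.

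Mitochondrial DNA is transcribed from both strands into long precursors, from which the tRNAs are cut out so that the mRNAs and rRNAs between them are released. The coding genes all encode subunits of respiratory complexes I, III, IV and V, whose other subunits come from the nucleus. Proximal tubule and thick ascending limb cells are rich in mitochondria, because sodium transport there depends on oxidative phosphorylation. Fragments of mitochondrial DNA have also been copied into nuclear chromosomes in the course of evolution, where they are annotated as pseudogenes.

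Such copies matter for what the table holds, and several members had an exact one. On chromosome 1, 7 pseudogenes lie side by side on the minus strand at chr1:24611535-24616197 (mm10), in the same order as their counterparts on the mitochondrial genome. They are Gm28439 (counterpart mt-Nd4), Gm10222 (mt-Nd4l), Gm28438 (mt-Nd3), Gm28437 (mt-Co3), Gm10925 (mt-Atp6), Gm28661 (mt-Co2) and Gm29216 (the end of mt-Co1). In 5 of the 7 no base differed from the mitochondrial gene over the aligned length, which was 876 bases for Gm28439, 294 for Gm10222, 783 for Gm28437, 678 for Gm10925 and 681 for Gm28661. The mt-Nd4l gene at chrM:9877-10173 is shown whole because it is the shortest of these. Capitals mark the 294 bases with an identical counterpart in Gm10222, and only the stop codon in lower case falls outside the pseudogene model.
mt-Nd4l: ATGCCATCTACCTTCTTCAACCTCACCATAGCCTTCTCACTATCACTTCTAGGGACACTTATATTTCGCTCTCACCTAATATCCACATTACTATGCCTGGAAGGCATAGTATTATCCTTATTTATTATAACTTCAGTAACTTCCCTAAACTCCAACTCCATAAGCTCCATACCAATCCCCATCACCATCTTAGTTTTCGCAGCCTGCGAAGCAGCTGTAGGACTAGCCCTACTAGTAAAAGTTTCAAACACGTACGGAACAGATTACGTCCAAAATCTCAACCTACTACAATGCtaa

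Within mt-Nd4, at chrM:10167-11544, the annotated copy stops partway. The stretch from base 817 to base 936 of the transcript is shown to place that border, with the bases also present in Gm28439 in capitals. The model of Gm28439 ends at base 876 of mt-Nd4, and the remaining 502 bases have no counterpart in it.
mt-Nd4: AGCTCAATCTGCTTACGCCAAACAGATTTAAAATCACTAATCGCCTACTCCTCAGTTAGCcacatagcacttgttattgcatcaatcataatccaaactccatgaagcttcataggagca

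The pseudogene of mt-Nd3 differed from the gene, at chrM:9459-9806, by 1 base in 345. The substitution is T3C, counted from 1 at the start of the transcript, with the base of mt-Nd3 first, and it falls on the third base of the first codon. The first 60 bases of both are shown with that base in capitals.
mt-Nd3: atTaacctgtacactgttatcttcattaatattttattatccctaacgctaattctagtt
Gm28438: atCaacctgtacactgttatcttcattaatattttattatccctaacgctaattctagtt

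Exact copies were counted for every member as the share of its 50-base words (50-mers) that also occur, on either strand, in any of 141730 annotated transcripts outside the mitochondrial genome. In 5 coding members nearly all 50-mers were shared. The share was 100% for mt-Co2, 99.9% for mt-Co3, 99.5% for mt-Atp6, 98.8% for mt-Nd4l and 98.0% for mt-Nd3. It was 62.2% for mt-Nd4 and 51.1% for mt-Co1, 8.19% for mt-Nd2 and 7.61% for mt-Nd5. For mt-Nd1, mt-Nd6, mt-Cytb and mt-Atp8 no shared 50-mer was found. With words of 100 bases the share stayed at 97.6% or more in those 5 members, was 60.8% for mt-Nd4, and fell to 30.8% for mt-Co1. Only annotated transcripts were searched. The 233 bases between Gm10925 and Gm28661 hold no annotated transcript, while the matching gap between mt-Co2 and mt-Atp6, which holds mt-Tk and most of mt-Atp8, spans 230 bases.

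The levels of the coding members fell into separate ranges. In 7 members, mt-Nd1, mt-Nd2, mt-Co1, mt-Nd4, mt-Nd5, mt-Nd6 and mt-Cytb, the mean level ran from 341 to 10720 CPM, or from 658 to 9200 CPM per kb of transcript. In the 5 members with 98.0% to 100% of 50-mers shared it ran from 0.0597 to 4.24 CPM, or from 0.0877 to 12.2 CPM per kb. The ranges did not overlap, and the lowest of the 7, mt-Nd6, stood 54.0-fold above the highest of the 5, mt-Nd3, per kb. The 13th coding member, mt-Atp8, lies between members of the second set on the genome and was measured at 0.0245 CPM. The sources used here do not give how reads that match more than 1 place or overlap more than 1 gene were counted, and the part of the copies in these levels was not tested. For the members with copies the deposited level is therefore uncertain as a measure of mitochondrial RNA.

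**Figure D1:**
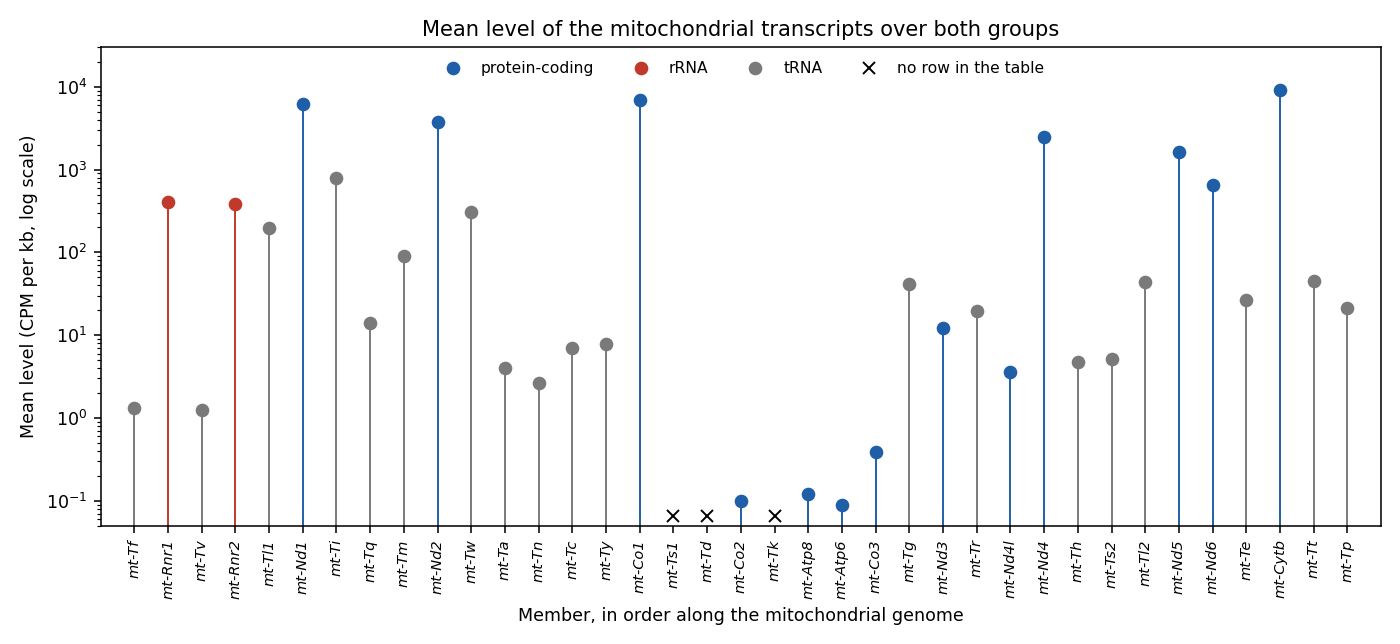
Mean level over both groups, in CPM per kb of transcript on a log scale, of each member in its order along the mitochondrial genome, with coding genes in blue, rRNAs in red, tRNAs in grey and crosses for the 3 members without a row. The stretch from mt-Ts1 to mt-Co3 holds 7 members, and each was under 1 CPM or had no row. Levels per kb of the short tRNAs do not compare directly with those of longer members.

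**Figure D2:**
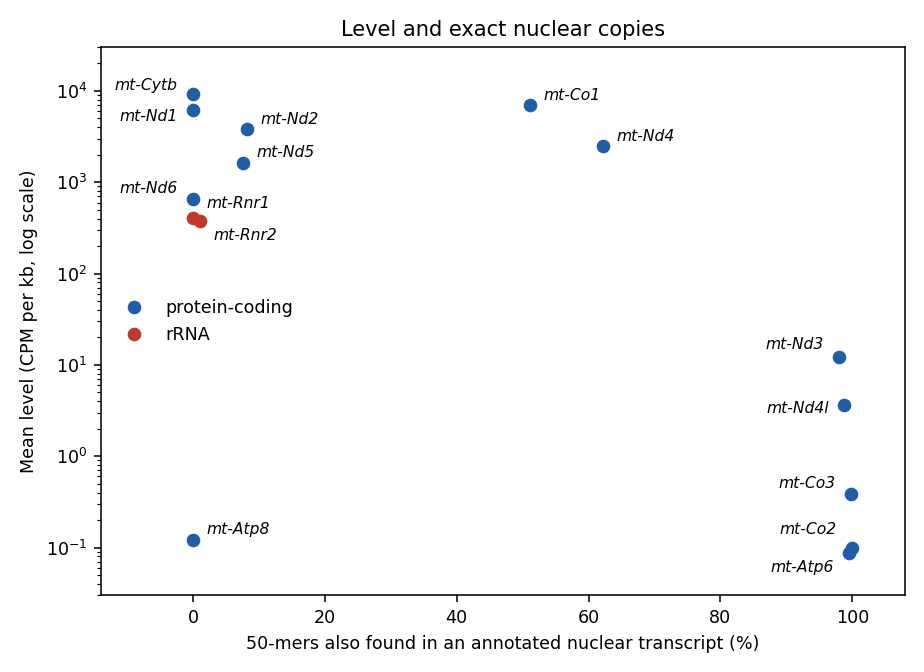
Mean level in CPM per kb (log scale) against the share of 50-mers also found in an annotated nuclear transcript, for the 13 coding members (blue) and the 2 rRNAs (red). The 5 members at the right, with 98.0% to 100% of 50-mers shared, sit from 0.0877 to 12.2 CPM per kb, and mt-Atp8 is low with no shared 50-mer.

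Complex I, the NADH dehydrogenase that opens the respiratory chain, has 7 members. In the authors' deposited table the high ones were mt-Nd1 at 5955 CPM, mt-Nd2 at 3942 CPM, mt-Nd4 at 3397 CPM, mt-Nd5 at 2972 CPM and mt-Nd6 at 341 CPM. The others, mt-Nd3 at 4.24 CPM and mt-Nd4l at 1.07 CPM in the authors' deposited table, both have a copy on chromosome 1. The genes mt-Nd4l and mt-Nd4 overlap by 7 bases and are known to share a bicistronic mRNA, yet their deposited levels per kb differed 682-fold. Per kb, mt-Nd1 had 6223 CPM, mt-Nd2 3798, mt-Nd4 2465, mt-Nd5 1630 and mt-Nd6 658.

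Complex III, the cytochrome bc1 complex, has 1 member. It is mt-Cytb, the cytochrome b gene at chrM:14145-15288, which had the highest level per kb of all members, 9200 CPM per kb, from 10525 CPM in the authors' deposited table. Complex IV, cytochrome c oxidase, has 3 members, which form its catalytic core. Of these mt-Co1, at chrM:5328-6872, had the highest total level, 10720 CPM or 6938 CPM per kb. The others were far lower in the authors' deposited table, with mt-Co2 at 0.0683 CPM and mt-Co3 at 0.305 CPM. Complex V, the ATP synthase, has 2 members. In the authors' deposited table mt-Atp6 was measured at 0.0597 CPM and mt-Atp8 at 0.0245 CPM.

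The ATP synthase genes overlap by 43 bases in different reading frames, which adds to the uncertainty of where their reads were counted. The mt-Atp8 gene at chrM:7766-7969 is shown whole, with the bases it shares with mt-Atp6 in capitals.
mt-Atp8: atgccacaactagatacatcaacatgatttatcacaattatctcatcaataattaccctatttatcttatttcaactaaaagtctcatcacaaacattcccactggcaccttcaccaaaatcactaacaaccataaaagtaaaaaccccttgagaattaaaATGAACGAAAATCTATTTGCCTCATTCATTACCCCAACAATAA

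The order of the 7 high members depended on how length was counted. Per kb of transcript it ran from mt-Cytb over mt-Co1, mt-Nd1, mt-Nd2, mt-Nd4 and mt-Nd5 to mt-Nd6, a 14.0-fold range. Per 1000 unshared 50-mers, mt-Co1 came first at 14664 CPM, then mt-Cytb at 9612, mt-Nd4 at 6767 and mt-Nd1 at 6558. Below them were mt-Nd2 at 4341, mt-Nd5 at 1812 and mt-Nd6 at 727. This measure takes the copied stretches out of the length but keeps the whole level of the gene. It is too high for members with copies, mt-Co1 and mt-Nd4 above all, if reads of those stretches were counted, which is not known. Whether neighbours in either order differ beyond the spread between mice cannot be said without values of single libraries. The mt-Nd6 gene is the only coding member on the minus strand. It overlaps mt-Nd5 by 14 bases, and since the sources used here do not give the strand setting of the counting, its reads cannot be told apart from antisense RNA of the other strand.

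The coding members also differ in how their messages begin and end in the annotation. The first codon is ATG in 9 of them, and it is GTG in mt-Nd1, ATA in mt-Nd2, ATT in mt-Nd3 and ATC in mt-Nd5. In mt-Cytb, mt-Co3 and mt-Nd4 the length leaves 1 base over a multiple of 3. In such genes the stop codon is known to be completed by the poly(A) tail. The GC content of the coding members ran from 31.9% to 41.1%.

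Per kb, the rRNA members lay below the 7 high mRNAs and above the other 6. The small-subunit rRNA mt-Rnr1, at chrM:70-1024, was measured at 391 CPM and the large-subunit rRNA mt-Rnr2, at chrM:1094-2675, at 602 CPM in the authors' deposited table. Per kb they stood at 410 and 381 CPM, and mt-Nd1, which follows mt-Rnr2 on the same precursor, was 16.3-fold above mt-Rnr2. The sources used here do not say whether the libraries were made from polyadenylated RNA or after removal of rRNA.

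The tRNA members were scarce but not evenly so. Of the 19 with a row, 10 had a mean of at least 1 CPM, and the 19 together summed to 114 CPM. The isoleucine tRNA mt-Ti had 55.1 CPM, the tryptophan tRNA mt-Tw 20.9 CPM, the leucine tRNA mt-Tl1 14.8 CPM and the methionine tRNA mt-Tm 6.33 CPM in the authors' deposited table. Each of these 4 lies directly beside mt-Nd1 or mt-Nd2. Other tRNAs beside high mRNAs were lower. In the authors' deposited table mt-Tt and mt-Te, beside mt-Cytb, had 3.03 and 1.85 CPM, and mt-Tl2, beside mt-Nd5, 3.09 CPM. Likewise mt-Ty, beside mt-Co1, had 0.523 CPM and mt-Th, beside mt-Nd4, 0.314 CPM. Whether position goes with level was not tested. Per kb mt-Ti reached 798 CPM, 7.80-fold below mt-Nd1, whose last 2 bases it shares. With read length unknown, a gene of 69 bases may be no longer than a read. Levels per kb of tRNAs therefore do not compare directly with those of longer members. The sequences of the 3 highest are shown, with the bases they share with a neighbouring gene in capitals.
mt-Ti: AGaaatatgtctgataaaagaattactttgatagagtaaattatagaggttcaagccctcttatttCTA
mt-Tw: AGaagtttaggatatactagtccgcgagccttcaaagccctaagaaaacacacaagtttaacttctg
mt-Tl1: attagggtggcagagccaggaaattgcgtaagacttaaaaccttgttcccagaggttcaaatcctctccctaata

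The other tRNAs of at least 1 CPM were lower. In the authors' deposited table they were the second leucine tRNA mt-Tl2 at 3.09 CPM, the threonine tRNA mt-Tt at 3.03 CPM, the glycine tRNA mt-Tg at 2.80 CPM, the glutamate tRNA mt-Te at 1.85 CPM, the proline tRNA mt-Tp at 1.44 CPM and the arginine tRNA mt-Tr at 1.34 CPM. The remaining 9 ran from 0.0858 to 0.988 CPM. The lowest were mt-Tv and mt-Tf, the valine and phenylalanine tRNAs that flank mt-Rnr1, at 0.0858 and 0.0891 CPM in the authors' deposited table. By strand, the median was 2.91 CPM for the 12 plus-strand tRNAs with a row and 0.523 CPM for the 7 on the minus strand. The plus-strand set includes mt-Ti, mt-Tw, mt-Tl1 and mt-Tm, which lie beside mt-Nd1 or mt-Nd2. With the strand setting unknown, reads of minus-strand tRNAs cannot be told apart from antisense RNA, and the contrast was not tested. Mature tRNAs are short and heavily modified, and no size selection for them is named in the sources used here.

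All members with a row together made up 3.88% of the summed mean CPM of the table. Coding members held 97.2% of this, rRNAs 2.55% and tRNAs 0.292%, and mt-Co1 and mt-Cytb alone held 54.5%. These shares rest on deposited levels, which are uncertain for the members with copies, and are not the composition of mitochondrial RNA in the kidney. The transcript of mt-Co1 ranked 2 and that of mt-Cytb 3 among all transcripts by mean level, and 6 members were among the 20 genes with the highest level. Each gene stood by its highest row alone, so the level of nuclear genes with several transcripts may be understated.

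Between vehicle and quinolinic acid, no mitochondrial transcript passed the test. With the authors' edgeR likelihood-ratio test and Benjamini-Hochberg adjustment over all transcripts, 0 of 34 members had an adjusted p under 0.05. The share called was 0.0141% of all transcripts, 0.0215% of genes and 0.0152% of genes of at least 1 CPM. At an unadjusted p under 0.05 the count was also 0 of 34, against 6.08% of all transcripts, 5.12% of all genes, 4.09% of genes of at least 1 CPM and 1.56% of genes of at least 100 CPM. According to the authors' deposited table the smallest unadjusted p among the members was 0.167, for mt-Tv, and the smallest adjusted p was 0.794. All 34 approximate intervals included 0, which restates the p-values, since both come from the same likelihood ratios. The members share precursors and mitochondria, so they are not independent measurements.

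Signs were mixed. Positive log2 fold changes were found in 19 of the 34 members and negative ones in 15, and their median was 0.06. Over all genes 57.9% were positive and the median was 0.04. Among the 21 members of at least 1 CPM, 13 were positive and 8 negative, with a median of 0.09. Over all 13115 genes of that level 71.8% were positive and the median was 0.08. Subtracting that median shifts every gene alike, and it put the median of the 34 members at -0.01.

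**Figure D3:**
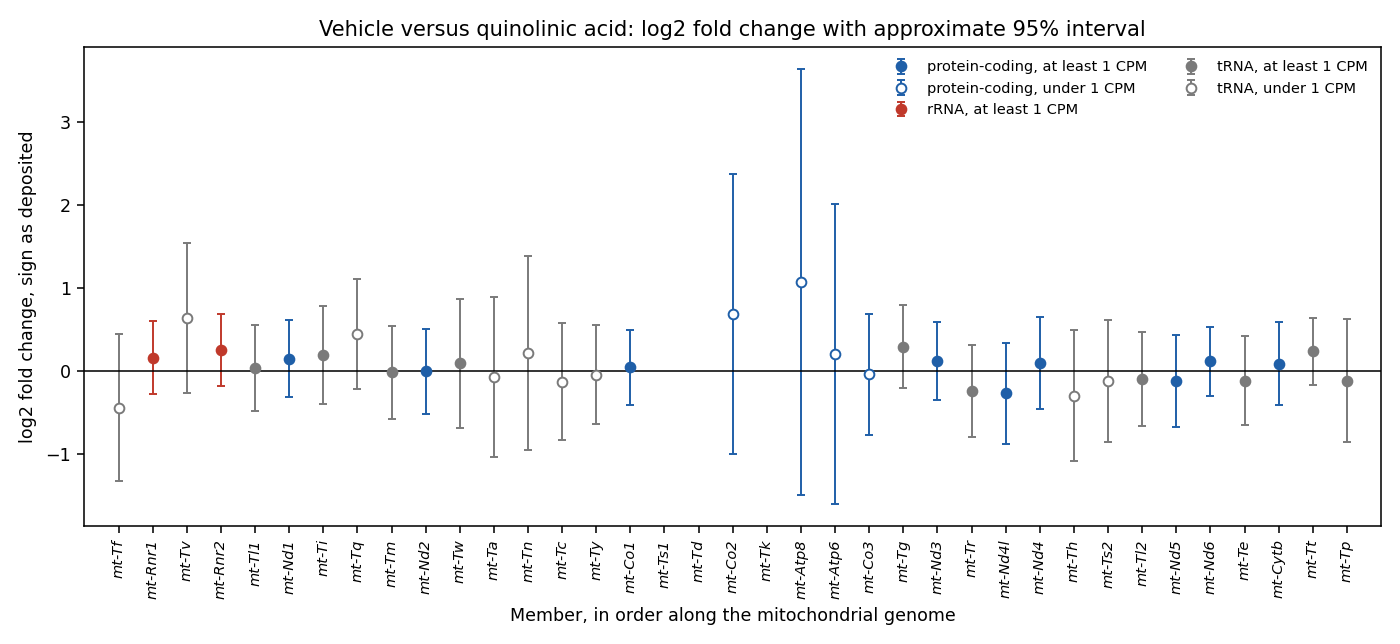
Deposited log2 fold change of each member with a row, sign as deposited, with its approximate 95% interval, in order along the mitochondrial genome. Filled points have a mean of at least 1 CPM and open points less, and every interval crosses 0.

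The abundant mRNAs had small differences. The log2 fold change was 0.15 (95% interval -0.32 to 0.61) for mt-Nd1, -0.01 (-0.53 to 0.51) for mt-Nd2 and 0.09 (-0.47 to 0.65) for mt-Nd4 in the authors' deposited table. It was -0.13 (-0.68 to 0.43) for mt-Nd5 and 0.11 (-0.30 to 0.53) for mt-Nd6 in the authors' deposited table. The cytochrome b message mt-Cytb stood at 0.09 (-0.42 to 0.59) and the oxidase message mt-Co1 at 0.04 (-0.41 to 0.49) in the authors' deposited table. From the lowest to the highest these 7 spanned 0.27 log2 units, while the intervals reached 0.42 to 0.56 to either side of each value.

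The rRNAs had the largest differences among members of at least 100 CPM, and neither passed. The log2 fold change was 0.16 (-0.29 to 0.60) for mt-Rnr1, with an unadjusted p of 0.487, and 0.25 (-0.19 to 0.69) for mt-Rnr2, with an unadjusted p of 0.268 (adjusted 0.796) in the authors' deposited table. Across the 9 members of at least 100 CPM, no interval reached beyond a 1.61-fold difference in either direction.

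The low coding members had wide intervals. In the authors' deposited table mt-Co2 had a log2 fold change of 0.68 (-1.01 to 2.37), mt-Atp8 one of 1.07 (-1.50 to 3.64) and mt-Atp6 one of 0.20 (-1.61 to 2.01). The cytochrome oxidase message mt-Co3 stood at -0.04 (-0.77 to 0.69), and the complex I messages mt-Nd3 at 0.12 (-0.35 to 0.58) and mt-Nd4l at -0.28 (-0.88 to 0.33) in the authors' deposited table. For mt-Co2, mt-Atp6 and mt-Atp8 a difference was therefore hardly detectable at these levels.

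Among tRNAs of at least 1 CPM, 5 were positive and 5 negative. The log2 fold change was 0.29 for mt-Tg, 0.24 for mt-Tt, 0.19 for mt-Ti, 0.09 for mt-Tw and 0.03 for mt-Tl1 in the authors' deposited table. It was -0.02 for mt-Tm, -0.10 for mt-Tl2, -0.12 for mt-Tp, -0.12 for mt-Te and -0.25 for mt-Tr in the authors' deposited table. The 9 below 1 CPM ran from -0.45 for mt-Tf to 0.64 for mt-Tv, which flank the same rRNA gene. The median was -0.05 over all 19 tRNAs, 0.01 for the 12 on the plus strand and -0.07 for the 7 on the minus strand.

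The nuclear transcripts with exact 50-mers of a member, nearly all of them pseudogenes, did not pass either. Of 15 such transcripts 12 had a row. In the authors' edgeR likelihood-ratio test 0 of the 12 had an unadjusted p under 0.05, against 6.08% of all transcripts. With 12 rows this count cannot be told apart from that share. Only 3 of them reached 1 CPM. These were Gm13341, a copy related to mt-Co2, at 2.75 CPM, Gm13340, a full-length relative of mt-Co1, at 1.76 CPM, and Gm29216 at 1.57 CPM in the authors' deposited table. Gm13340 (chr2:22588103-22589647) differed from mt-Co1 at 37 of 1545 bases, an identity of 97.6%. Their log2 fold changes were -0.05 (-0.50 to 0.41), -0.02 (-0.38 to 0.35) and 0.19 (-0.33 to 0.71) in the authors' deposited table. The exact copies of mt-Co2, mt-Atp6 and mt-Co3 stood at 0.0817 CPM for Gm28661, 0.266 CPM for Gm10925 and 0.0832 CPM for Gm28437 in the authors' deposited table. Levels were thus low under the gene and under its copy alike.

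The approximate standard error of the 9 members of at least 100 CPM ran from 0.21 to 0.29 with a median of 0.24. By the highest row of each gene, few nuclear genes were as abundant as the leading members, and only 15 reached 1000 CPM. Their errors ran from 0.16 to 0.39 with a median of 0.24, against a median of 0.26 for the 6 members of that level. For all 631 nuclear genes of at least 100 CPM the median error was 0.17, but these had a median level of 164 CPM, against 3397 CPM for the 9 members. These values are a description over genes and were not tested.

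No nuclear partner of the same complexes was called. The share called was 0.0215% of all genes and 0.0152% of genes of at least 1 CPM, and this count cannot be told apart from it. The nuclear-coded subunits were picked by gene symbol alone, so some entries may not be subunits and some subunits may be missing. All 75 of at least 1 CPM had a positive log2 fold change, from 0.07 to 0.38 with a median of 0.19. Positive values were found in 71.8% of all genes of that level and 81.1% of nuclear genes of at least 100 CPM. Of the 75, 73 lay above 0.08, the median of all genes of at least 1 CPM. In comparison, the 9 coding members of that level ran from -0.28 to 0.15, with 6 positive, 3 negative and a median of 0.09. The lowest was mt-Nd4l, at 1.07 CPM and with a copy on chromosome 1. The 7 coding members of at least 100 CPM ran from -0.13 to 0.15, with 5 positive and 2 negative. The approximate standard error had a median of 0.26 for the 9 coding members and 0.17 for the 75 nuclear subunits. At an unadjusted p under 0.05 the whole list of 81 nuclear subunits held 1 positive gene, the muscle-type oxidase subunit Cox8b at a log2 fold change of 2.89 and 0.117 CPM in the authors' deposited table, and 0 negative genes in the authors' edgeR likelihood-ratio test. Over all genes 5.12% had such a p. The smallest p among those of at least 1 CPM belonged to the complex I subunit Ndufs5 (0.31, unadjusted p 0.0581) and the testis-type oxidase subunit Cox6b2 (0.38, unadjusted p 0.0615) in the authors' deposited table, and both had an adjusted p of 0.794. Per kb, with only the highest row of each gene counted, the nuclear transcripts of at least 1 CPM had a median of 101 CPM. Their highest value was 573 CPM for Atp5g3, which encodes the c subunit of the ATP synthase ring. All 7 high coding members lay above that highest value, and the other 6 lay below the nuclear median. After a trend of fold change with transcript length and level was taken out, the nuclear median was 0.03 and 22 of 75 were negative, while the median of the 9 coding members was -0.05. The difference between mitochondrial and nuclear subunits was not tested, since that needs values of single libraries.

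**Figure D4:**
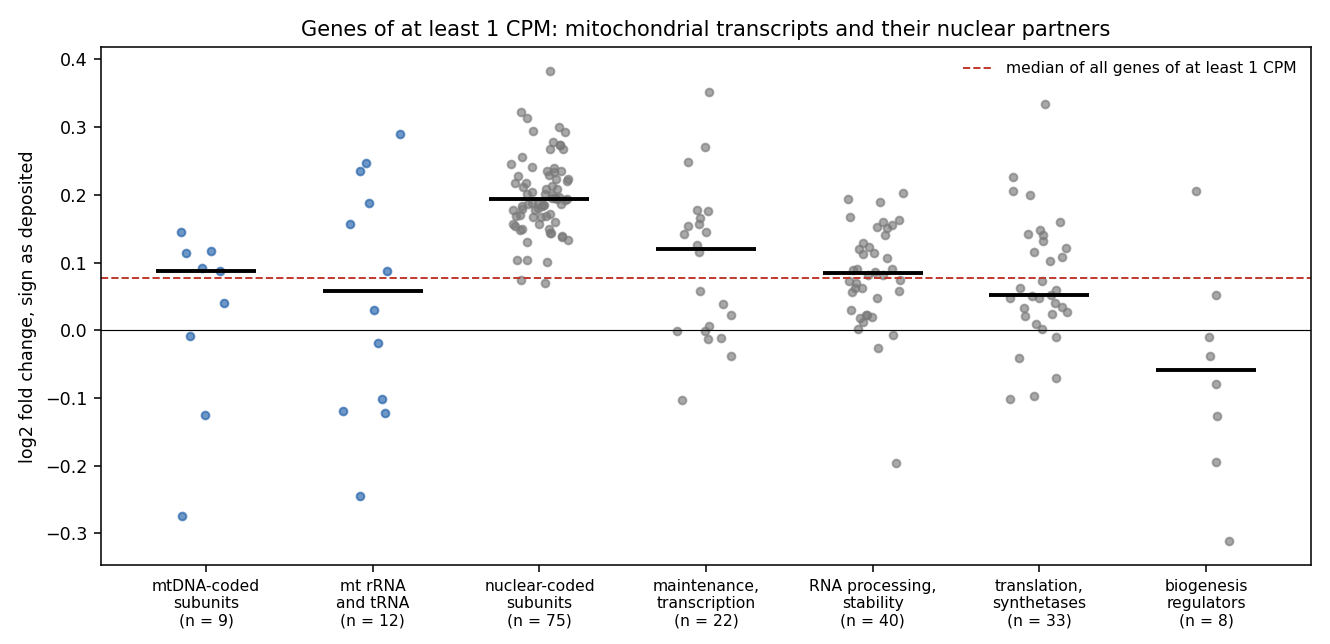
Deposited log2 fold change (sign as deposited) of genes of at least 1 CPM, for mitochondrial transcripts in blue and lists of nuclear partners in grey, with 1 point per gene, black bars for medians and a dashed line for the median of all genes of that level. The nuclear subunits lie wholly above 0, while the mitochondrial transcripts spread on both sides. The approximate standard error had a median of 0.26 for mitochondrial coding transcripts, 0.28 for mitochondrial rRNAs and tRNAs and 0.17 for nuclear subunits.

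The genes that copy, process and translate the mitochondrial genome were also not called, which cannot be told apart from the 0.0152% called among genes of at least 1 CPM. Of 23 genes of DNA maintenance and transcription, 16 were positive and 7 negative, with a median of 0.12. Over all genes of at least 1 CPM 71.8% were positive. Of the 22 genes of the list at that level, 12 lay above the median of all genes of at least 1 CPM. With the trend on length and level taken out, 11 of the 22 were positive and 11 negative. In the authors' likelihood-ratio test 4.09% of genes of at least 1 CPM had an unadjusted p under 0.05, with 3.20% positive and 0.884% negative. In this list it was reached by 2 genes, both positive. These were Dguok, the mitochondrial deoxyguanosine kinase (0.27, unadjusted p 0.0320), and Slc25a33, a pyrimidine nucleotide carrier (0.35, unadjusted p 0.0362), each with an adjusted p of 0.794 by the authors' deposited table. On the negative side were Rrm2b, a ribonucleotide reductase subunit (-0.10), and the exonuclease gene Mgme1 (-0.04) in the authors' deposited table.

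Of 40 genes of RNA processing and stability with a row, 37 were positive and 3 negative, with a median of 0.08. Over all genes of at least 1 CPM 71.8% were positive, and 22 of the 40 lay above the median of those genes. With the trend on length and level taken out, 16 of the 40 were positive and 24 negative. In the authors' edgeR likelihood-ratio test 0 had an unadjusted p under 0.05, against 4.09% of genes of at least 1 CPM. The leading ones were Ptcd1, a pentatricopeptide-repeat protein (0.19, unadjusted p 0.0554), and Fastk (0.19, unadjusted p 0.0834), which is involved in mt-Nd6 mRNA, in the authors' deposited table. On the negative side stood Cdk5rap1 (-0.20), a tRNA-modifying enzyme, and Fastkd1 (-0.03) in the authors' deposited table. Of 33 translation factors and tRNA synthetases, 28 were positive and 5 negative, with a median of 0.05. Only 13 of the 33 lay above the median of all genes of at least 1 CPM. With the trend taken out, 16 were positive and 17 negative. The elongation factor gene Tsfm stood at 0.33, with an unadjusted p of 0.00866 (adjusted 0.698) in the authors' likelihood-ratio test. It was the only gene of the list with an unadjusted p under 0.05, against 4.09% of genes of at least 1 CPM when both signs are counted. Next was the methionyl-tRNA formyltransferase gene Mtfmt (0.21), and on the negative side the synthetase gene Wars2 (-0.10) and the translational activator gene Taco1 (-0.10) in the authors' deposited table.

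Of 8 regulators of mitochondrial biogenesis, 2 were positive and 6 negative, with a median of -0.06. Above the median of all genes of at least 1 CPM lay 1 of the 8. With the trend taken out, the counts were again 2 and 6. Ppargc1b, which encodes the coactivator PGC-1beta, stood at -0.31 (95% interval -0.62 to -0.00014) and 1.70 CPM in the authors' deposited table. Its unadjusted p in their likelihood-ratio test was 0.0499 (adjusted 0.794). It was the only one of the 8 under 0.05, against 4.09% of genes of at least 1 CPM when both signs are counted. The orphan nuclear receptor gene Esrrg stood at -0.20 and its relative Esrra at 0.21, and Gabpb1, a subunit of nuclear respiratory factor 2, at 0.05 in the authors' deposited table.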

How the data were processed

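RNA of whole kidneys from 5 vehicle and 5 quinolinic acid mice was compared, grouped by the treatment in the sample titles. STAR 2.5.3a, featureCounts of Subread 1.4.6, edgeR and FastQC 0.11.2 were used on build mm10, per the submitters' processing notes. The sources used here do not give the annotation release, strand setting, read length, or handling of reads with several matches or overlapping genes. For each transcript the authors deposited, per the file headers, the log2 fold change, mean log2 CPM, likelihood-ratio score, p-value and adjusted p-value. The authors' edgeR likelihood-ratio test was used as it stands and called at an adjusted p under 0.05. No count per library was used, so depth is unknown.

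Identifiers without version were joined to GENCODE vM21, where 98.0% matched, and each symbol was represented by its row with the highest mean level. Dividing the size of the log2 fold change by the root of its likelihood ratio gave an approximate standard error. Exact words of 50, 75 and 100 bases were searched in the vM21 transcripts. A loess trend (span 0.5) on log2 length and mean level was removed in R 4.3.3 over genes of at least 1 CPM, and the steps were tested on simulated data. Python 3.11.15 did the rest. Named were all coding and rRNA members, tRNAs of at least 1 CPM, nuclear copies of at least 1 CPM, and from each list the 2 genes per sign that had the smallest p at 1 CPM or more. A few others were chosen after their values were seen: mt-Tv, mt-Tf, mt-Ty and mt-Th, the low copies Gm28661, Gm10925 and Gm28437, Atp5g3, Cox8b and Cox8c. The members and lists were chosen with earlier results of these data known.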

Additional observations from a re-analysis of the deposited data

How the results depend on the processing

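No member was called under any setting run. The count was 0 of 34 at an adjusted p under 0.1, at an unadjusted p under 0.05 and with adjustment over 1 row per gene. It was 0 of 21 members of at least 1 CPM with adjustment over genes of that level or after removal of the trend on length and level. The smallest unadjusted p in the authors' likelihood-ratio test was 0.167 and adjustment cannot lower it. Only removal of the trend could therefore have given another count. The median log2 fold change of the members was 0.0634 as deposited, and its sign was not stable. It was 0.0868 over members of at least 1 CPM, 0.0898 over those of at least 10 CPM and 0.0924 over coding members, but -0.0508 over tRNAs, -0.0132 with the median of genes of at least 1 CPM subtracted and -0.0482 with the trend removed. A mean weighted by CPM gave 0.0611, and the log2 ratio of summed fitted levels 0.0610. The median was 0.0348 over the 28 members left without mt-Atp8 and the 5 members copied on chromosome 1, a choice made after the levels were seen. No spread between replicates is at hand to hold these shifts against. With the trend removed the sign changed for 8 of 21 members, which left 5 positive and 16 negative. The trend rests on few transcripts as short as tRNAs. No paired analysis was possible because the table holds no values per library, and for the same reason leaving out single replicates was not run. What limits these data is that precision comes from the deposited statistics alone, and that 13 members lay under 1 CPM.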
